A study of Rattus norvegicus with 32 samples.

Results

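10 genes of the cyclic nucleotide phosphodiesterase superfamily were followed in the left ventricle of septic rats: Pde1c, Pde2a, Pde3a, Pde3b, Pde4a, Pde4b, Pde4d, Pde5a, Pde8a and Pde10a. They were taken by name, and 22 probes of the array carried their symbols, of 45598 probes and 27963 named genes. Hearts came from Wistar rats aged 9 to 12 weeks, and 6 groups were formed: sham males (n = 5), CLP males (n = 5), CLP plus landiolol males (n = 6), sham females (n = 5), CLP females (n = 5) and CLP plus landiolol females (n = 6). CLP is cecal ligation and puncture, a surgical model in which gut contents leak into the abdomen and cause peritonitis and sepsis. Landiolol blocks the β1-adrenergic receptor for a short time and was infused at 0.1 mg/kg/min from 1 h after CLP, while saline was given to the other groups. In all groups the heart was imaged at 18 h and perfused outside the body before it was frozen, and expression was read at 20 h on 1 single-colour array per rat. The question was how sepsis, and β1 blockade during sepsis, changed each gene in each sex.

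Phosphodiesterases break down cAMP and cGMP, the second messengers made by adenylyl and guanylyl cyclases, and so set how long and where in the cell a signal lasts. In cardiac myocytes, cAMP made after β-adrenergic stimulation activates protein kinase A, which raises contraction force and rate. The families differ in substrate: Pde4 and Pde8 enzymes degrade cAMP, Pde5a degrades cGMP, and Pde1c, Pde2a, the Pde3 enzymes and Pde10a degrade both.

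All values below are log2 levels of the processed signal of a probe, made comparable between the arrays of a sex by quantile normalisation, so levels were not compared between probes or between sexes. A gene was read from its brightest probe that passed a filter on detection. "Called" means past a false discovery rate (FDR) of 1% where sham was the reference and of 5% where untreated CLP was, in limma with Benjamini-Hochberg adjustment over all kept probes, 25866 in males and 25395 in females. Depth differed between arrays (median processed signal 49.2 to 158, and 34920 to 43155 probes well above background), and no spot was saturated. Of 8 cardiomyocyte markers, 8 were well above background on all 32 arrays, and their summed level lay between 20.95 and 21.20 on every array. Quantile normalisation holds the brightest levels of the arrays of a sex alike, so this range does not measure the share of myocyte RNA. The tissue was whole ventricle, in which fewer cells of a type and less RNA per cell cannot be told apart.

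The probes of the genes on which the results turned are given first. Pde10a and Pde4b are each represented by a single probe of 60 bases, shown here because every value of these genes rests on it. The Pde10a probe lies on the minus strand at chr1:46392997-46393056 and the Pde4b probe on the plus strand at chr5:123533360-123533419 (rn4, as in the scanner files). The single Pde4a probe lies on the plus strand at chr8:20241328-20241387.
Pde10a probe: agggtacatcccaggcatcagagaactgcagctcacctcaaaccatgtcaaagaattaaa
Pde4b probe: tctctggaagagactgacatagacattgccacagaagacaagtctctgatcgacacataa

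Pde10a was called in more comparisons than any other member. It rose in septic hearts of both sexes, 2.63-fold in males and 3.45-fold in females, and was lower in landiolol-treated than in untreated septic hearts of both sexes, 2.34-fold in males and 2.06-fold in females. Pde4a, a cAMP-specific enzyme, fell in CLP males by 0.87 on the log2 scale. Pde4b, the cAMP-specific enzyme best known from inflammatory cells, gave a log2 fold change of 1.44 in CLP males, which missed the threshold. Among the members tested, 2 of 9 were called in CLP vs sham males (1 up-regulated and 1 down-regulated, against 7.81% of all kept probes called) and 1 of 8 in females (against 3.63%). In CLP plus landiolol vs CLP, 1 of 9 was called in males (against 1.56%) and 1 of 8 in females (against 0.0945%). These last shares rest on 404 and 24 probes, which became 121 to 1058 and 0 to 132 with single arrays left out. With so few members, these counts serve to place the single genes. The median log2 fold change of the tested members was -0.20 in CLP males (0.01 over all kept probes) and 0.29 in CLP females (-0.01). In landiolol-treated vs untreated CLP it was 0.15 in males (-0.01) and -0.08 in females (0.03). The 9 members of the males include Pde1c, kept through the sham group, where it was high, and the 8 of the females do not. So the male and female medians are over unlike sets and nothing is read from their difference.

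**Figure D1:**
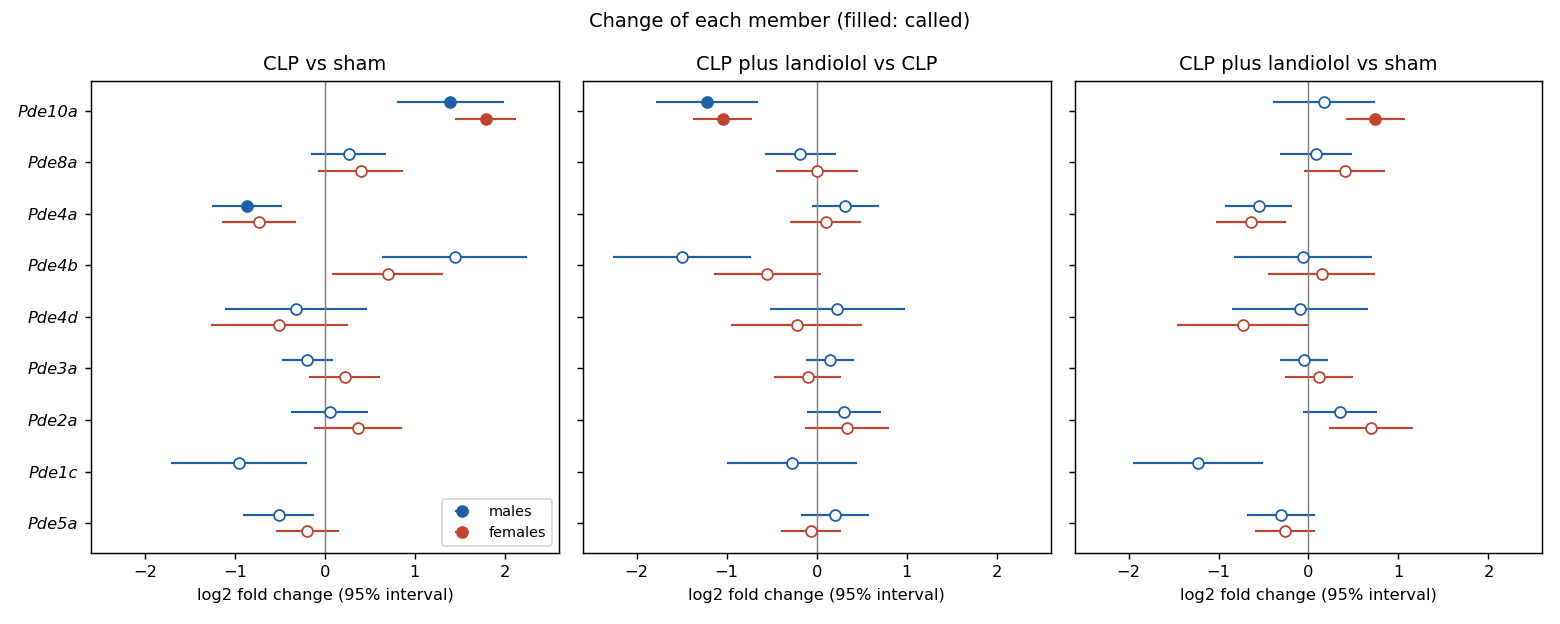
Log2 fold change of each member (points, with 95% intervals from limma) in CLP vs sham, CLP plus landiolol vs CLP and CLP plus landiolol vs sham, in males (blue) and females (red). Filled points are called: Pde10a is filled in both sexes on the left (1.39 and 1.79) and in the middle (-1.22 and -1.05), and Pde4a in CLP males.

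Pde10a hydrolyses both cyclic nucleotides and is best known from striatal neurons. In sham males its level was 8.87, 8.12, 8.70, 7.97 and 8.55, and in CLP males 10.003, 9.01, 10.45, 10.05 and 9.66. The lowest, median and highest levels of CLP plus landiolol males were 7.98, 8.50 and 9.29. All CLP males lay above all sham males, and the landiolol-treated males overlapped both groups, the CLP group only through its lowest array. The log2 fold change in CLP vs sham males was 1.39 (SE 0.28, 95% interval 0.80 to 1.99, limma adjusted p = 0.00312). Pde10a was 1 of 2 members whose CLP and sham males did not overlap, a pattern seen in 12.3% of all kept probes.

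In females the separation was wider. Sham females had Pde10a levels of 7.10, 7.89, 7.91, 8.11 and 7.92, and CLP females 9.61, 9.60, 9.60, 9.60 and 9.44. The CLP plus landiolol females ranged from 8.35 to 8.76 with a median of 8.51, between the other groups and without overlap with either. The CLP vs sham log2 fold change was 1.79 (SE 0.16, 95% interval 1.45 to 2.13, limma adjusted p = 2.19e-05). Pde10a was the only 1 of 8 members without overlap in this comparison, against 8.32% of kept probes.

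Under landiolol, Pde10a was lower than in untreated CLP by 1.22 on the log2 scale in males, a log2 fold change of -1.22 (SE 0.27, 95% interval -1.79 to -0.66, limma adjusted p = 0.0313). In females the log2 fold change was -1.05 (SE 0.15, 95% interval -1.37 to -0.72, limma adjusted p = 0.0268). The male groups overlapped, as did those of all but 2.26% of kept probes, and the female groups did not, as in 1.15% of kept probes. Both calls were close to the 5% threshold and depended on single arrays, although the size of the change did not. Leaving out 1 array at a time, the male log2 fold change ran from -1.43 to -1.07 and the female from -1.09 to -1.01. The male call was lost without CLP replicate 3, 4 or 5 or without CLP plus landiolol replicate 1, 2, 4 or 6 (adjusted p 0.0588 to 0.101). The female call was lost without CLP replicate 2, 3 or 4 or without CLP plus landiolol replicate 1, 2, 5 or 6 (adjusted p 0.0612 to 0.112). The rise in CLP was still called with any 1 array of the females left out, and in males it fell just outside 1% without CLP replicate 3 (adjusted p = 0.01003, fold change 1.24) or CLP replicate 4 (adjusted p = 0.0103, fold change 1.34).

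**Figure D2:**
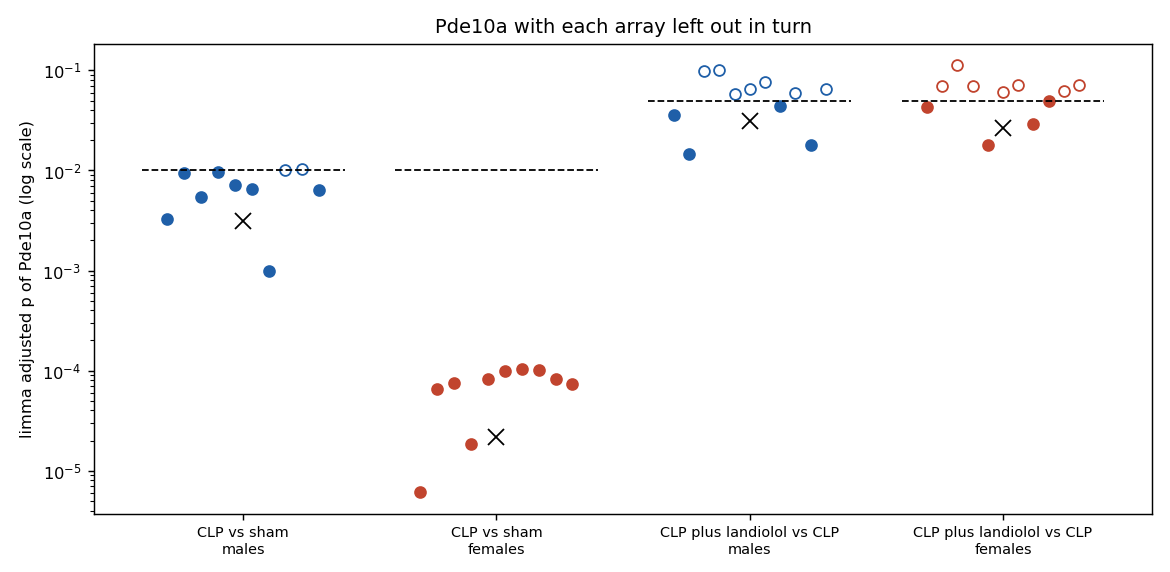
Adjusted p of Pde10a (limma, log axis) with each array of the compared groups left out in turn, in males (blue) and females (red), with sham or untreated CLP as the reference. Crosses show the value with all arrays, dashed lines the threshold (FDR 1% or 5%) and filled points a call: the female CLP vs sham values stay between 6.07e-06 and 0.000105, and the landiolol values of both sexes lie on both sides of 5%.

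The arrays lay on 4 slides, each sex on a pair of its own and every group of a sex spread over both. The extraction protocol was named GE1_107_Sep09 for slide 3, of the females, and GE1_105_Dec08 for female slide 4 and both male slides. Within the slides the differences of Pde10a had 1 direction: CLP minus sham was 1.33 and 1.45 on the male slides and 1.96 and 1.56 on the female slides, and CLP plus landiolol minus CLP was -1.21 and -1.24 in males and -1.13 and -0.97 in females. In females the row of the slide ran partly with the group, since all sham arrays were in row 1 and all CLP plus landiolol arrays in row 2. The CLP females were in both rows, with mean Pde10a levels of 9.61 in row 1 (n = 3) and 9.52 in row 2 (n = 2). So in row 1 all CLP arrays lay above all sham arrays, and in row 2 all CLP arrays lay above all CLP plus landiolol arrays. With the row as a term, a setting added after the data were seen, the female landiolol change was -0.997 (limma adjusted p = 0.246).

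The CLP plus landiolol group was also set against sham, which shares its arrays with the comparisons above. In females Pde10a stayed above sham by 0.74 (SE 0.15, limma adjusted p = 0.00503), and in males the difference was 0.17 (95% interval -0.40 to 0.74, limma adjusted p = 0.743). These female groups shared no row of the slide, so the row could be set apart only through the CLP females, who lay in both, and with the row as a term the female value was 0.82 (SE 0.29, limma adjusted p = 0.317). The female call was also lost without any 1 of CLP plus landiolol replicates 2 to 6 (adjusted p 0.0104 to 0.0122), with log2 fold changes of 0.57 to 0.82 over all arrays left out. Pde10a was the 1 member of 8 called in females (against 5.25% of kept probes), and of the 9 members tested in males 0 were called in limma (against 4.15%) and 2 had an unadjusted p under 0.05. By another route, significance analysis of microarrays (SAM), 2 were called in males, Pde1c and Pde4a, beside 1784 of the 25866 kept probes. Groups did not overlap for 2 members in each sex, Pde1c and Pde4a in males (7.78% of kept probes) and Pde2a and Pde10a in females (9.73%). Pde1c had been kept through the sham group, where it was high, so nothing is read from its share in these counts.

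Pde4b varied widely among CLP males (SD 0.97, n = 5). Pde4b enzymes degrade cAMP and are induced in macrophages by endotoxin. Levels in sham males were 7.74, 8.16, 8.00, 8.42 and 7.91, and in CLP males 8.05, 9.002, 10.23, 10.38 and 9.78. The CLP plus landiolol males ran from 7.08 through a median of 8.04 to 8.66. In CLP males, replicate 1 lay within the sham range and the other 4 above it. The log2 fold change of CLP vs sham was 1.44 (SE 0.38, limma adjusted p = 0.0162, above the 1% threshold). In SAM, which gives a false discovery rate from permuted labels and no adjusted p, the value was 0.00541. The log2 fold change of CLP plus landiolol vs CLP was -1.50 (SE 0.36, 95% interval -2.27 to -0.73, limma adjusted p = 0.0508, just above 5%). Both comparisons used the same CLP arrays, and without CLP replicate 1 both were called, at 1.80 (limma adjusted p = 0.00095) and -1.86 (limma adjusted p = 0.00384). That array was the lowest of its group, so leaving it out could only widen both changes. Of the 10 and 11 arrays left out in turn, it was the only 1 that gave a call. Without it the calls over all kept probes also rose, from 2021 to 2364 and from 404 to 1058. In 7 of 13 other settings the landiolol change of Pde4b in males was called, and in 2 of 13, SAM and an FDR of 5%, the CLP change.

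In females neither Pde4b comparison was called in limma. Their levels were 8.18, 8.45, 8.21, 7.72 and 8.66 in sham and 9.25, 8.12, 9.67, 8.99 and 8.66 in CLP, and from 7.76 to 8.98 with a median of 8.49 in CLP plus landiolol. All female groups overlapped. The log2 fold change was 0.70 (95% interval 0.08 to 1.32, limma adjusted p = 0.16) for CLP vs sham and -0.55 (95% interval -1.14 to 0.04, limma adjusted p = 0.578) for CLP plus landiolol vs CLP.

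Pde4a moved the other way. This cAMP-specific enzyme had levels of 10.21, 10.06, 10.09, 10.12 and 10.26 in sham males and 9.93, 9.48, 9.32, 9.08 and 8.59 in CLP males. Every CLP male lay below every sham male. The log2 fold change was -0.87 (SE 0.18, 95% interval -1.26 to -0.48, limma adjusted p = 0.00445), a 1.83-fold fall. The call was lost without sham replicate 5 (adjusted p = 0.0125), CLP replicate 3 (0.0105) or CLP replicate 4 (0.0144). In females the levels were 10.15, 9.74, 10.62, 9.95 and 10.36 in sham and 9.25, 9.97, 9.48, 9.07 and 9.36 in CLP, with 1 CLP array inside the sham range, and the log2 fold change of -0.74 (SE 0.19, limma adjusted p = 0.0251) did not pass 1%. Without that array, CLP replicate 2, the female log2 fold change was -0.87 (limma adjusted p = 0.00862). It was the highest CLP array, so leaving it out could only widen the fall, and no other of the 10 arrays left out gave a call.

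After landiolol Pde4a ranged from 9.41 to 9.78 in males and from 9.28 to 9.91 in females. The difference from untreated CLP was 0.32 in males (95% interval -0.06 to 0.69, limma adjusted p = 0.426) and 0.10 in females (95% interval -0.30 to 0.49, limma adjusted p = 0.927). Against sham the values were -0.55 (limma adjusted p = 0.0591) and -0.64 (limma adjusted p = 0.0335), neither past 1%, and in males the groups did not overlap. These female groups shared no row of the slide. Over the other settings, the row as a term among them, the female value ran from -0.65 to -0.29.

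**Figure D3:**
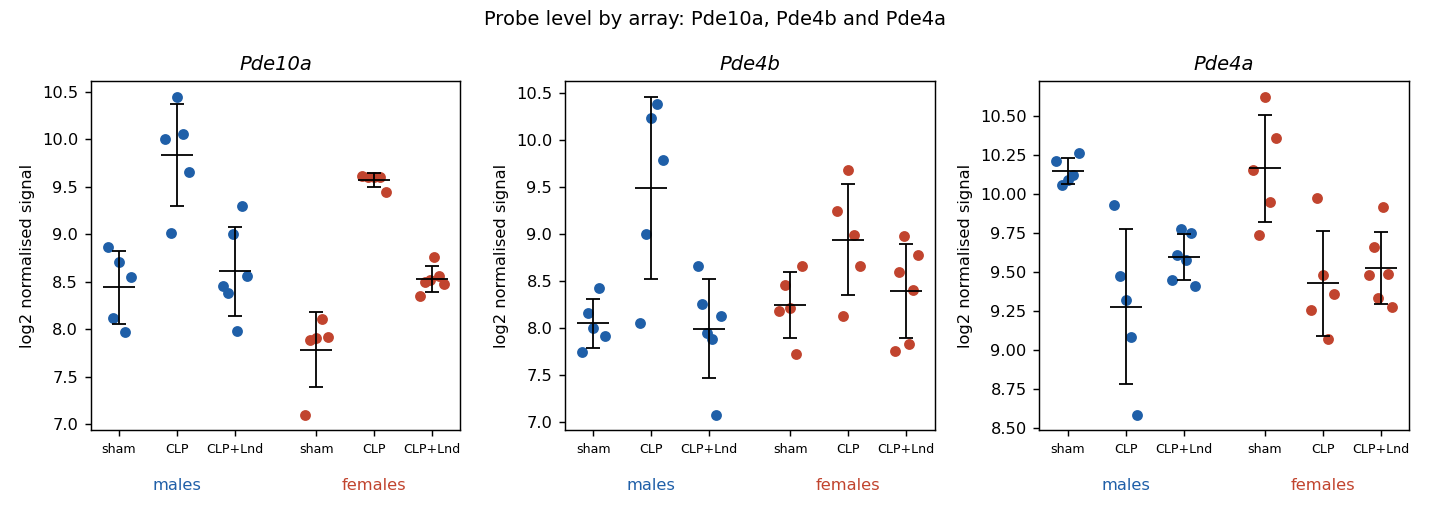
Log2 normalised signal of Pde10a, Pde4b and Pde4a on each array (points) with the group mean and SD (black), in sham, CLP and CLP plus landiolol (CLP+Lnd) males (blue) and females (red). For Pde10a the CLP arrays (9.01 to 10.45 in males, 9.44 to 9.61 in females) lie above the sham arrays, and for Pde4b 1 CLP male at 8.05 lies within the sham range.

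Pde4d, the cAMP-specific enzyme found with the ryanodine receptor and β-arrestins in myocytes, was covered by 6 probes, and all 6 were kept in both sexes. Its brightest probe ranged from 14.69 to 17.01 in males and from 14.90 to 17.35 in females, with all groups overlapping. The brightest probe was not called in any comparison: its log2 fold change was -0.32 in CLP males (limma adjusted p = 0.635), -0.51 in CLP females (0.445), 0.23 in landiolol-treated vs untreated males (0.776) and -0.22 in the females (0.904). Its standard error was 0.34 to 0.37, and the probes disagreed with it in places. Set against CLP, the other probes in CLP plus landiolol males had log2 fold changes of -0.64 to -0.21, opposite in sign to 0.23, with none called. Their unadjusted p in limma was 0.00574 (A_44_P1159098), 0.0151 (A_44_P311334), 0.0227 (A_44_P1102284), 0.0316 (A_44_P1154821) and 0.536 (A_43_P11785). In the females all 6 probes were negative, from -0.36 to -0.20, with none called. Their unadjusted p in limma was 0.00809 (A_44_P1102284), 0.0416 (A_44_P1159098) and above 0.05 for the others. In CLP vs sham males A_44_P311334 gave 0.58 (unadjusted p in limma 0.0306), A_44_P1159098 0.16 and A_44_P1154821 0.07, opposite in sign to -0.32. A_44_P1102284 gave -0.10 and A_43_P11785 -0.08 there. The counts and medians of members rest on the brightest probe, which stood apart from the others in these male comparisons. In CLP plus landiolol vs sham females, 2 of the other probes were called, A_44_P1102284 at -0.66 (SE 0.12, limma adjusted p = 0.00221) and A_44_P1159098 at -0.68 (SE 0.15, limma adjusted p = 0.00796), while the brightest gave -0.73 (SE 0.34, limma adjusted p = 0.188). All 6 probes were negative in that comparison, from -0.73 to -0.43. Those female groups shared no row of the slide. With the row as a term, 20 of all kept probes were called in that comparison, and 1332 without it.

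**Figure D4:**
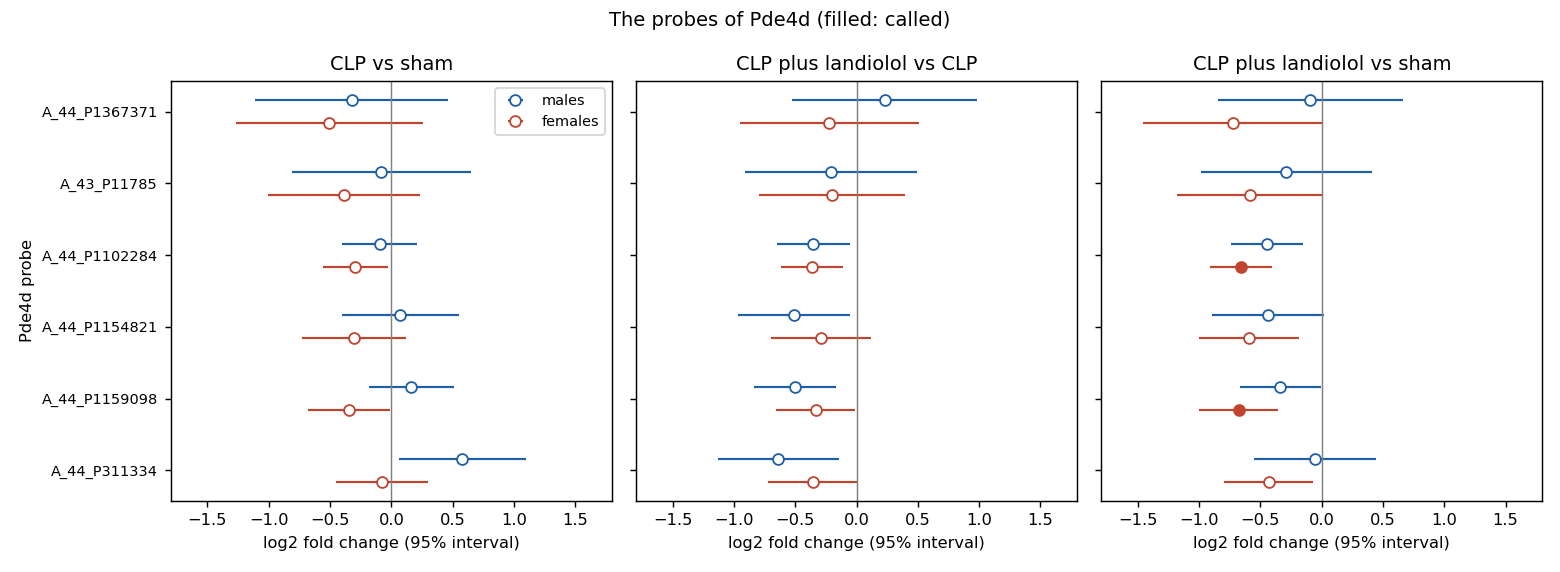
Log2 fold change of the 6 Pde4d probes (brightest at the top, 95% intervals from limma) in the same comparisons, in males (blue) and females (red), with called probes filled. Intervals of the brightest probe are the widest, and 2 of the other probes are filled for CLP plus landiolol vs sham females, groups that shared no row of the slide.

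The members that degrade both messengers, other than Pde10a, gave no call in limma. Pde3a, the cGMP-inhibited enzyme at the sarcoplasmic reticulum that milrinone blocks, was called in neither sex. Pde3a levels ran from 13.40 to 13.95 in males and from 12.82 to 13.83 in females, and log2 fold changes in CLP vs sham were -0.20 in males (95% interval -0.48 to 0.09, limma adjusted p = 0.374) and 0.22 in females (95% interval -0.17 to 0.61, limma adjusted p = 0.533). Its other family member Pde3b, known from adipocytes and liver, had 1 probe that was well above background on 1 of 32 arrays and was tested in neither sex. Of 7 adipocyte markers, Adipoq and Plin1 were well above background on 0 of 32 arrays, Lep on 1, Cidec on 6, Pck1 on 7, Retn on 10 and Cfd on 32.

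Pde2a, which cGMP stimulates to degrade cAMP, had 1 probe. Its log2 fold change in CLP males was 0.05 (95% interval -0.38 to 0.48, limma adjusted p = 0.908). In females Pde2a was 11.58, 12.07, 12.57, 12.67 and 12.54 in sham and 12.80, 12.25, 12.16, 12.78 and 13.26 in CLP, and ran from 12.77 to 13.25 in CLP plus landiolol. Each treated CLP female lay above each sham female, with a log2 fold change of 0.70 (SE 0.22, limma adjusted p = 0.0488, not past 1%). Those groups shared no row of the slide. In the CLP females Pde2a averaged 12.40 in row 1 (n = 3) and 13.02 in row 2 (n = 2). Over the other settings, the row as a term among them, the value against sham ran from 0.08 to 0.70. The summed level of 8 endothelial markers ranged from 15.19 to 15.95 in sham and from 15.67 to 16.09 in CLP plus landiolol females, and its part in the Pde2a value was not tested.

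Pde1c, activated by calcium and calmodulin, was near the detection limit. Of its 3 probes 1 was kept, in males only, and it was kept through the sham group, so it entered the test because it was high there. It was well above background on 5 of 5 sham, 1 of 5 CLP and 3 of 6 CLP plus landiolol males, with levels of 4.98 to 5.47, 3.69 to 5.01 and 2.68 to 4.86. Its log2 fold change was -0.95 in CLP vs sham (SE 0.36, limma adjusted p = 0.0825) and -1.23 in CLP plus landiolol vs sham (SE 0.34, limma adjusted p = 0.0319), neither past 1%. SAM called both, with false discovery rates from permuted labels of 0.00502 and 0.00886, on the same probe kept through the sham group.

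Pde5a and Pde8a, specific for cGMP and cAMP, also gave no call. Pde5a, which sildenafil inhibits, had levels of 6.88 to 7.55 in sham males and 6.28 to 6.99 in CLP males, and a log2 fold change of -0.51 (SE 0.19, limma adjusted p = 0.0747). Its second kept probe gave -0.15 (adjusted p = 0.799). In females the Pde5a value was -0.19 (95% interval -0.54 to 0.15). Pde8a, a high-affinity cAMP enzyme, gave 0.26 in CLP males (95% interval -0.15 to 0.68) and 0.40 in CLP females (95% interval -0.08 to 0.87, limma adjusted p = 0.312). Landiolol-treated and untreated CLP differed by -0.18 in males and 0.00 in females for Pde8a, and by 0.20 and -0.06 for Pde5a, with limma adjusted p from 0.61 to 0.999.

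**Figure D5:**
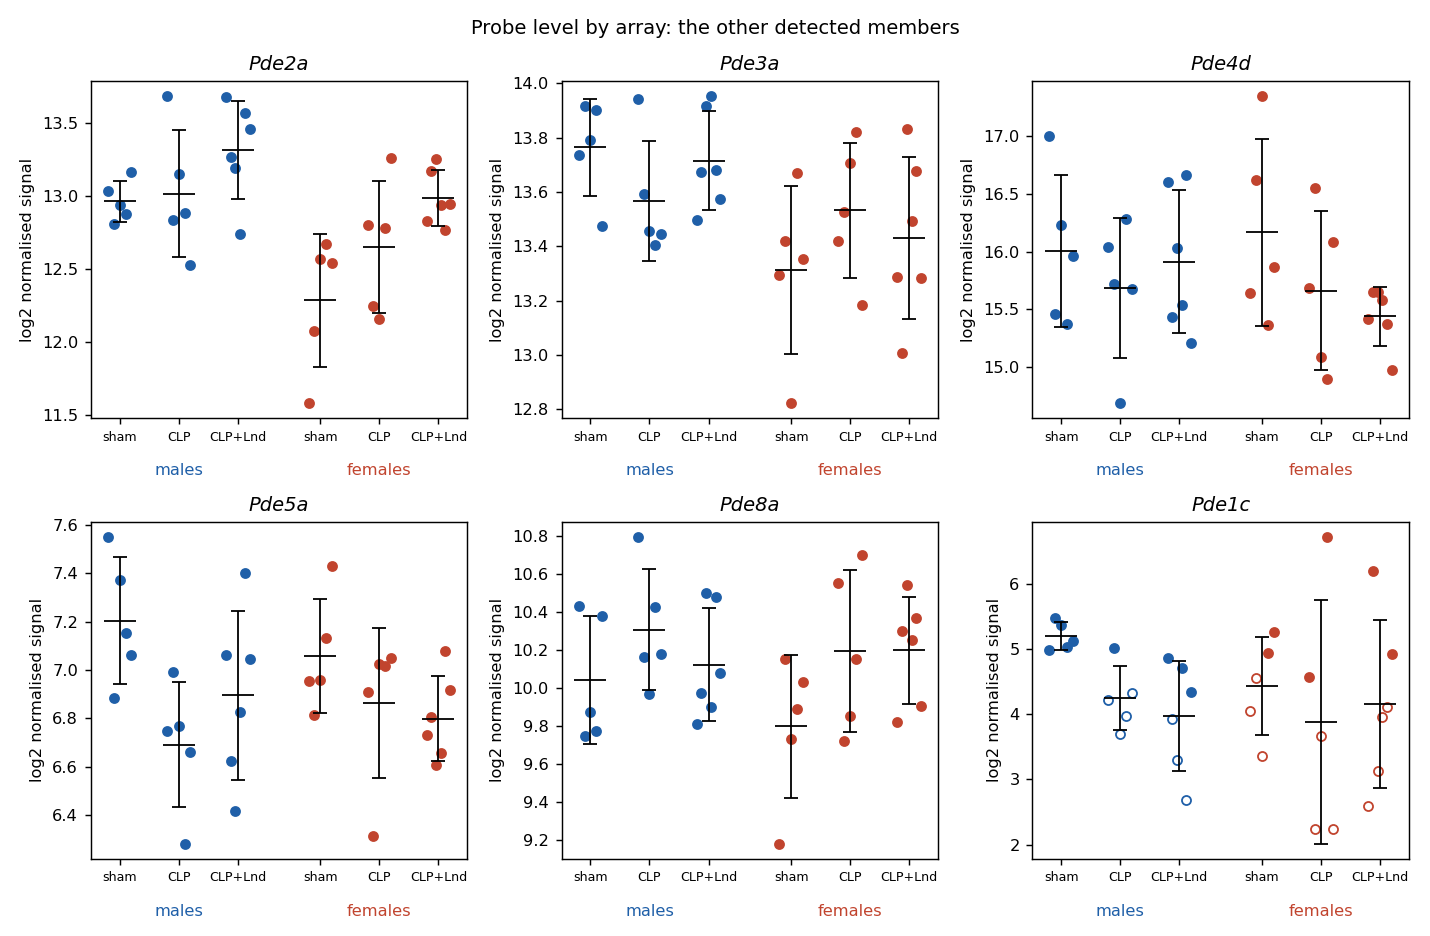
Log2 normalised signal of Pde2a, Pde3a, Pde4d, Pde5a, Pde8a and Pde1c on each array, with the group mean and SD, in the same groups and colours as the plot of Pde10a levels. Open points were not well above background: they are found for Pde1c only, where 5 of 5 sham males but 1 of 5 CLP males were above it.

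The sexes were compared directly in a model of all 32 arrays, over 24769 probes kept in both sexes. Of 8 members 0 were called at an FDR of 5% in limma for either difference, 0 had an unadjusted p under 0.05, and the lowest adjusted p was 0.972. Over all these probes 0% were called for the CLP effect and 0% for the landiolol effect, and 3.5% and 4.91% had an unadjusted p under 0.05. The CLP effect on Pde10a was 0.42 higher in females than in males, with a 95% interval of -0.24 to 1.08, and its landiolol effect differed by 0.15 (-0.48 to 0.79). For Pde4b the landiolol effect was 0.93 less negative in females, with an interval of -0.03 to 1.89 (unadjusted p = 0.0569). The intervals thus hold differences of up to 1.08 for the CLP effect on Pde10a and 1.89 for the landiolol effect on Pde4b, and sex went together with slide. These values are those of the brightest probe of each gene. Of the other Pde4d probes, A_44_P1159098 and A_44_P311334 gave a female minus male CLP effect of -0.51 and -0.66 (unadjusted p = 0.03 and 0.0397, limma adjusted p = 0.9999 for each).

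The genes around the members were read from lists of the pathway. Over all kept probes, 7.81% were called in CLP vs sham males and 3.63% in females. In CLP plus landiolol vs CLP the shares were 1.56% and 0.0945%. With few genes per list, the counts serve only to place the single genes. Of 14 other phosphodiesterase genes 8 were tested. Pde1a, the calcium-dependent enzyme of smooth muscle and heart, fell in CLP males (log2 fold change -1.46, SE 0.27, limma adjusted p = 0.00188) and gave -1.28 in CLP females (adjusted p = 0.0531). Pde7b, a cAMP-specific enzyme, rose in CLP females (1.48, SE 0.24, limma adjusted p = 0.0011) and gave 0.95 in CLP males (adjusted p = 0.015). Pde7b gave -0.94 in males (adjusted p = 0.0589) and -0.73 in females (adjusted p = 0.268) in CLP plus landiolol vs CLP. In those comparisons 0 of the 8 were called in limma in either sex, with 4 in males and 3 in females at an unadjusted p under 0.05.

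Of 15 genes that anchor or bind phosphodiesterases and protein kinase A, all 15 were tested. In CLP males 1 rose and 2 fell (against 7.81% of all kept probes called), and in CLP females 2 fell (against 3.63%). Akap6, the anchor that holds protein kinase A and Pde4d at the nuclear envelope of myocytes, fell in both sexes (-1.12, SE 0.13, limma adjusted p = 5e-05 in males and -1.19, SE 0.16, limma adjusted p = 0.000353 in females). It was higher in CLP plus landiolol than CLP males (0.57, limma adjusted p = 0.0295) and gave 0.82 in the females (adjusted p = 0.0596). The mitochondrial anchor Akap1 also fell, by 1.16 in males and 1.01 in females on the log2 scale (limma adjusted p = 0.00206 and 0.0035). Akap13 rose in males (0.61, limma adjusted p = 0.00187).

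Among 19 effectors of the cyclic nucleotides 17 were tested. The counts of effectors, cyclases and receptors stand against 7.81% of all kept probes called in CLP males and 3.63% in CLP females. In CLP males 1 fell, the protein kinase A catalytic subunit Prkaca (-0.45, limma adjusted p = 0.00739). In CLP females 2 rose, the cGMP-dependent kinase Prkg1 (1.14, limma adjusted p = 0.00888) and the cAMP-activated exchange factor Rapgef4 (0.90, limma adjusted p = 0.00128), and Popdc2, a cAMP-binding membrane protein, fell (-0.95, limma adjusted p = 0.00161). Of 13 cyclase genes tested in males 1 fell, Adcy7 (-1.07, limma adjusted p = 0.00291), and of 12 tested in females 0 were called in limma, with 6 at an unadjusted p under 0.05. Of 8 tested receptor and G protein genes 2 rose in CLP males, Grk5 (0.90, limma adjusted p = 0.00108), a kinase that desensitises β-adrenergic receptors, and Gnai3 (0.73, limma adjusted p = 0.00221), and 1 in females, Grk5 (0.76, limma adjusted p = 0.00916).

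Of 12 cAMP-responsive genes all 12 were tested. Crem, whose short ICER forms repress transcription at cAMP response elements, rose in CLP males (1.31, SE 0.18, limma adjusted p = 0.000216) and was lower in CLP plus landiolol than CLP males (-1.35, SE 0.18, limma adjusted p = 0.00249). The female Crem values were 0.73 (adjusted p = 0.164) and -1.24 (adjusted p = 0.136). Ppargc1a, a coactivator of mitochondrial biogenesis, fell in CLP females (-1.54, limma adjusted p = 0.00304).

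The named genes whose pattern over the arrays was most like that of Pde10a were Abr, Tgm1, Mcm3ap, Epb41 and Rcan2. Their Pearson correlations with Pde10a, averaged over the 16 arrays of each sex, were 0.89, 0.88, 0.88, 0.87 and 0.86. The arrays in each correlation span the same groups and slides, so these values describe the shared order of the groups. Since the 5 genes were picked on these arrays, a rise in CLP and a fall after landiolol were largely built into the choice. Their changes below are descriptive for that reason. Tgm1, a transglutaminase, had the widest range of the 5, with log2 fold changes of 4.89 and 5.62 in CLP males and females (limma adjusted p = 5.28e-05 and 0.000146) and -3.60 and -2.50 in CLP plus landiolol vs CLP (0.00484 and 0.166). Rcan2, an inhibitor of calcineurin, was called in all of these comparisons, with 2.46 and 2.14 in CLP and -2.13 and -1.54 after landiolol. Among the other members the averaged correlation with Pde10a was 0.54 for Pde4b, 0.53 for Pde8a and -0.54 for Pde4a.

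Promoter sequence was read from RefSeq (GRCr8) for 9 of the members, as 300 bases from 250 before to 50 after each listed start. Because most of the results turn on Pde10a, Pde4b and Pde4a, and cAMP acts on transcription through the cAMP response element, the first listed promoter of each is printed with every copy of the core of that element in capitals. The core searched was TGACG on either strand, which reads CGTCA on the printed strand when it lies on the other, and the full element was TGACGTCA, which contains the core on both strands.
Pde10a, chr1:54765619-54765918, minus strand: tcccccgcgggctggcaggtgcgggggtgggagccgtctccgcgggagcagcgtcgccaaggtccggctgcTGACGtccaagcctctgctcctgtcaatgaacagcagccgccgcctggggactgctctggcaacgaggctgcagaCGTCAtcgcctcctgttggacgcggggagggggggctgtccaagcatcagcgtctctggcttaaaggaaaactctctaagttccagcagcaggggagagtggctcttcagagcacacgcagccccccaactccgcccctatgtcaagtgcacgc
Pde4b, chr5:122028706-122029005, plus strand: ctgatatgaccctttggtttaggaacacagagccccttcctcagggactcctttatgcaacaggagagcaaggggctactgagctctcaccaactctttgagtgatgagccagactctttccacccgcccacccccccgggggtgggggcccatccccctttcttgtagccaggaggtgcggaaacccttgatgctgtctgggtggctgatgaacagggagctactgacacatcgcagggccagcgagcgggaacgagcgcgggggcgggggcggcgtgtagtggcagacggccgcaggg
Pde4a, chr8:27966737-27967036, plus strand: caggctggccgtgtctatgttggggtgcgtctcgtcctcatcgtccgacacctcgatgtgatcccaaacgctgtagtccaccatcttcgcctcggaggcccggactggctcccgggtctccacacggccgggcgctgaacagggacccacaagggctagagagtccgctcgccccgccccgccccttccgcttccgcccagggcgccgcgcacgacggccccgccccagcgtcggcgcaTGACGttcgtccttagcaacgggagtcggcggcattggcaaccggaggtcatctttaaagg

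The Pde10a promoter holds 2 cores, which begin at -179 and -104 from the start, and the other Pde10a promoter holds 0. The Pde4a promoter holds 1 core at -11, and another of the Pde4a promoters 1 at -18. The core was in neither Pde4b promoter. Over the 19 promoters of the members, 6 held the core and 0 the full element, and over all 33469 promoters of rat genes listed there, 21.2% held the core and 1.83% the full element. These matches describe letters in a window and not sites in use.

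The summed levels of macrophage and neutrophil markers had higher medians in CLP than in sham, and that of lymphocyte markers a lower one, in both sexes. The counts of markers stand against 7.81% of all kept probes called in CLP males and 3.63% in CLP females. Of 7 tested macrophage markers 3 rose in CLP males and 2 in females, Adgre1 by 2.79 in each sex (limma adjusted p = 7.66e-05 and 0.000259). Of 10 lymphocyte markers 5 were tested in males and 3 in females. In CLP vs sham 0 of them were called in limma, with 3 in males and 1 in females at an unadjusted p under 0.05. The summed level of the 8 neutrophil markers was 5.95 to 6.48 in sham, 7.43 to 9.71 in CLP and 8.42 to 9.79 in CLP plus landiolol males, and 6.15 to 6.95, 7.64 to 8.92 and 7.78 to 10.21 in females. Of those 8 markers, Mmp8 and Ngp were well above background on 0 of 32 arrays, Mpo on 1, Csf3r on 4, Cxcr2 on 8, Fpr1 on 15, S100a8 on 23 and S100a9 on 27, so no fold change is given for them. The summed macrophage level was 11.91 to 12.37, 12.72 to 13.45 and 12.40 to 13.46 in males, and 11.87 to 12.64, 12.82 to 13.40 and 12.96 to 13.31 in females. The medians of these sums in landiolol-treated vs untreated CLP males were 9.10 vs 7.83 for neutrophil and 13.27 vs 13.05 for macrophage markers. In females they were 8.11 vs 8.21 and 13.09 vs 13.18. The summed level of the 10 lymphocyte markers was 9.73 to 10.26 in sham, 9.18 to 9.60 in CLP and 9.51 to 10.19 in CLP plus landiolol males. In females it was 9.34 to 10.25, 9.03 to 9.74 and 9.20 to 9.70. Its medians in landiolol-treated vs untreated CLP were 9.88 vs 9.45 in males and 9.40 vs 9.54 in females. Of those markers, Cd3d and Nkg7 were well above background on 32 of 32 arrays, Cd3g on 31, and the others on fewer. In CLP males 4 of 7 fibroblast markers fell and 1 rose, while 0 of 8 cardiomyocyte markers were called in limma, or had an unadjusted p under 0.05, in CLP of either sex. The endothelial marker Emcn fell in both sexes (-1.08 and -1.34, limma adjusted p = 0.00397 and 0.00165) as 1 of 8 tested, and the pericyte marker Rgs5 fell in females (-0.91, limma adjusted p = 0.00588) as 1 of 8. The part of any cell type in the values of Pde10a, Pde4b and Pde4a was not tested.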

How the data were processed

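Left ventricle RNA (integrity number above the limit the study set) was labelled with a single dye and hybridised to an Agilent rat array. Spots were read by the authors with Agilent Feature Extraction 10.5, and the deposited scanner files hold the processed signal of each spot, a background-corrected intensity. The deposited value table holds log2 values made by the authors (lowest Spearman correlation with the scanner values 0.9949 in males and 0.9973 in females, unknown centring) and was used as an alternative. Probe positions are those of the files (rn4).

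Here, log2 of the processed signal was taken, spots marked as outliers were dropped, spots of a probe were averaged, and arrays were quantile-normalised within each sex. The filter kept a probe detected well above background in 80% or more of the arrays of any 1 group. limma 3.58.1 in R 4.3.3 was fitted to the 3 groups of a sex (16 arrays), or to all 32 arrays for the differences between the sexes, with Benjamini-Hochberg adjustment over all kept probes. The study used significance analysis of microarrays, which is an alternative here, with 100 permutations drawn. The fit was tested on simulated data. Other settings were scaling to the 75th percentile, normexp with an offset of 50, other filters, slide or row of the slide as a term, and each array left out. The precision is limited by the number of arrays. The members and gene lists were chosen with earlier results of these data known. All 10 members are named. Other genes were named if they passed the FDR of a comparison in a list of the pathway or of cell markers, or were among the 5 most correlated with Pde10a. Each array is a rat of its own, and replicate numbers follow the order of deposition and pair nothing. Protein sequences were not used here.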

Additional observations from a re-analysis of the deposited data

Results flagged for a closer look

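In 3 of 60 sets of a member and a group, 1 array stood apart from the others of its group by Dixon's test at 95%, and chance alone gives about 1 in 20. Pde10a in CLP females was 9.44 in replicate 5, below the other 4 arrays at 9.60 to 9.61. Pde10a in sham females was 7.10 in replicate 1, below the next value of 7.89. Pde5a in CLP females was 6.31 in replicate 2, below the next value of 6.91. No member was called in the test of the difference between the sexes.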

How the results depend on the processing

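Across settings other than leaving out an array, 667 of 692 values of single members stayed on their side of the threshold. Of the rest, 8 lost a call, 17 gained one and 0 reversed sign with a call in either setting. With arrays left out, 24 of 544 lost a call, 3 gained one and 0 reversed in that sense. Changes of sign without a call were not counted. In CLP plus landiolol vs CLP, Pde4d ran from -0.33 to 0.24 in males over the other settings, and Pde2a from -0.04 to 0.35 in females. The rise of Pde10a in CLP vs sham was called in 13 of 13 settings in each sex.

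The number of members called, 2 in CLP vs sham males, was 1 with only the groups compared in the model and 4 in SAM (Pde1c, Pde4a, Pde4b and Pde10a). SAM called 2660 of all kept probes there, and Pde1c had been kept through the sham group, so nothing is read from its call. In CLP vs sham females it was 2 instead of 1 at an FDR of 5%. In CLP plus landiolol vs CLP males, 1 called member became 2, Pde4b with Pde10a, with 75th percentile scaling, normexp, a filter on all arrays of a sex, a trended prior, the table of the authors, SAM and the mean over the probes of a gene, and 0 without a filter, with only the groups compared and at an FDR of 1%. There Pde10a had an adjusted p of 0.0607, 0.0744 and 0.0313. For CLP plus landiolol vs CLP females, 1 became 0 at an FDR of 1% and when the slide row entered the model. For CLP plus landiolol vs sham males, 0 became 1 with only the groups compared, 2 in SAM and 1 at an FDR of 5%. The last was Pde1c alone, which was also among the SAM calls and had been kept through the sham group. In the females, 1 became 0 with only the groups compared (Pde10a adjusted p = 0.0145) and with the row of the slide, and 3 at an FDR of 5%. Without 1 array the counts ran from 0 to 3 and 1 to 2 in CLP vs sham males and females, from 0 to 2 and 0 to 1 in CLP plus landiolol vs CLP, and from 0 to 0 and 0 to 1 in CLP plus landiolol vs sham. Neither difference between the sexes gave a member in any setting. The row of the slide was added after the data were seen.

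Over all probes, called numbers also moved by more than 1.5 times. In CLP vs sham they were 4134 at 5% in males (2021 at 1%), and in females (923) 2329 at 5%, 538 with only the groups compared and 337 with the row. In CLP plus landiolol vs CLP males (404) they were 246 without a filter, 163 with only the groups compared, 1023 in SAM and 86 at 1%. In the females (24) they were 42 in SAM, 14 with the mean over probes, 11 with both sexes normalised together, 9 with the filter on all arrays, 7 with 75th percentile scaling, 5 without a filter, 2 with only the groups compared, 1 with the row and 0 at 1%. Against sham, with landiolol, they were 1784 in SAM and 2538 at 5% in males (1074), and in females (1332) 2691, 3243 and 20 with the row. With single arrays left out, males and females gave 1305 to 2364 and 592 to 872 in CLP vs sham, 121 (without CLP replicate 4) to 1058 (without CLP replicate 1) and 0 to 132 (without CLP replicate 5) in CLP plus landiolol vs CLP, and 651 to 1092 and 901 to 1366 in CLP plus landiolol vs sham. The causes were not tested. No paired analysis was possible because the labels give no replicate numbers.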
